A study of Mus musculus with 24 samples.

Results

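The 9 genes described here, P2ry12, P2ry13, Gpr34, Cx3cr1, Tmem119, Siglech, Fcrls, Olfml3 and Sall1, are transcripts by which microglia at rest are recognised in mouse brain, and they were followed through a study of a mutation in Polr3a. They were chosen by gene name as 9 of the 54532 genes in the count tables, and each symbol matched 1 gene. The product of Polr3a lies at the catalytic core of RNA polymerase III, the enzyme that transcribes transfer RNA genes. Polyadenylated RNA was sequenced from brain tissue of C57BL/6J mice, all of which had received tamoxifen at postnatal day 28 (P28). The 24 libraries form 6 groups of 4. Polr3a mutant and wild type cerebrum and cerebellum were sampled at P42, 14 days after tamoxifen, and mutant and wild type cerebrum at P75, 47 days after it. Each cerebrum group at P42 held 2 males and 2 females, mutant cerebellum 2 males and 2 females, wild type cerebellum 3 males and 1 female, and the P75 groups only males.

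The labels name neither the Cre driver nor the cells that recombine, and do not say whether wild types carried Cre, so an effect of Cre cannot be told apart from that of the mutation. They also do not say that each library came from a separate animal, so p-values measure the spread between these libraries.

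Microglia are the resident macrophages of the brain. Signals from the surrounding tissue, among them transforming growth factor beta, CSF1 and IL-34, keep them in a surveying state marked by a set of receptors and surface proteins. When microglia react to damage or infection, several of these transcripts typically fall while genes of phagocytosis, antigen presentation and the interferon response rise. In whole tissue, fewer cells of a type and less RNA per cell cannot be told apart.

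P2ry12, P2ry13, Fcrls and Olfml3 lie on chromosome 3, Tmem119 on 5, Siglech on 7, Sall1 on 8, Cx3cr1 on 9 and Gpr34 on X (mm10). P2ry12 (59216272 to 59262871) and P2ry13 (59207892 to 59210882) are neighbours on the minus strand, and both lie within Med12l on the plus strand. Gpr34 lies within Cask on the opposite strand, and the span that the tables give Cx3cr1 (119901616 to 120069879) covers several other genes, among them Csrnp1 and Gorasp1 on the same strand. Whether the counting used strand is not given in the sources used here, so reads from Med12l, Cask and the genes within the Cx3cr1 span may be shared with these 4 receptors.

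Promoter windows of 300 bases (250 before and 50 after the start site) were taken from RefSeq (GRCm38.p6) for 7 of the 9 genes; Tmem119 and Gpr34 are named only. The windows of the 4 genes with the lowest fold values in mutant cerebrum at P42 among those 7 are shown, since these genes were lower in the same libraries. P2ry12 is at chr3:59262936-59263235, P2ry13 at chr3:59210833-59211132, Cx3cr1 at chr9:120068247-120068546 and Fcrls at chr3:87263475-87263774, all on the minus strand. Capitals mark GAGGAA, the core bound by the myeloid factor PU.1, in P2ry13 and Fcrls. In Cx3cr1 they mark CTA and TAG set 4 bases apart, the outer letters of MEF2 sites. The bases between, AAGA in Cx3cr1, were not restricted to A and T in the search.
P2ry12: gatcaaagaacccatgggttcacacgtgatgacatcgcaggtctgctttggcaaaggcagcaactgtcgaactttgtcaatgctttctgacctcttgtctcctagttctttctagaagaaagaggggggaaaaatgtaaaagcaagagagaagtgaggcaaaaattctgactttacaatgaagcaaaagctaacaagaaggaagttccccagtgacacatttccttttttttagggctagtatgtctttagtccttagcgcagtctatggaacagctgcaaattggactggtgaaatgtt
P2ry13: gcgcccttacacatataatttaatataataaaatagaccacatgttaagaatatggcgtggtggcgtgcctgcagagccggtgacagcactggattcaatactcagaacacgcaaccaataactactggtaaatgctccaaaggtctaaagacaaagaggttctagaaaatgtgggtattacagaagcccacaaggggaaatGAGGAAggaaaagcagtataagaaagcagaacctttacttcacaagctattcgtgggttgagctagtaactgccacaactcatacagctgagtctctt
Cx3cr1: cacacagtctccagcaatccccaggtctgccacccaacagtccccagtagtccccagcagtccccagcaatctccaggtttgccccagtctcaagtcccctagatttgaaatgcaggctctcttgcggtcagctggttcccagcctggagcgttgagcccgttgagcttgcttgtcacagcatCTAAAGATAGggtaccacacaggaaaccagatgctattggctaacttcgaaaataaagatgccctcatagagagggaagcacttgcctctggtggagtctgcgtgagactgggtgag
Fcrls: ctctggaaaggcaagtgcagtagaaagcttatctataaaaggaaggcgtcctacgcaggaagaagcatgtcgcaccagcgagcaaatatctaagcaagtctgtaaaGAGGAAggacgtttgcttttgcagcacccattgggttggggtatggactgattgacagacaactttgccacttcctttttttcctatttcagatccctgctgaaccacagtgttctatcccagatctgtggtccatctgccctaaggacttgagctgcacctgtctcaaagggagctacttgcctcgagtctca
Both strands were searched. GAGGAA begins 48 bases before the start of P2ry13 and 144 before that of Fcrls, and its reverse complement begins 4 bases before the start of Siglech; 28.3% of 32851 mouse promoter windows hold it on either strand. The letters CTA and TAG set 4 bases apart begin 67 bases before the start of Cx3cr1. As a pattern they read the same on both strands, and 3.69% of windows hold them. None of the 7 genes held GGAA and GAAA 2 bases apart, the composite of PU.1 and IRF factors (2.72% of windows), or 2 copies of GAAA 2 bases apart, the core of interferon response elements (3.44%). A match in these letters is a description of the window and not a binding site.

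Depth and tissue identity were as follows. Each library held 13832721 to 23175864 counts, and levels are given as CPM, the count of a gene relative to a library total scaled by the trimmed mean of M values (TMM). For the targeted gene Polr3a the mutants at P42 averaged 37.7 ± 2.55 CPM and their wild types 42.2 ± 3.72 CPM in cerebrum, and the mutants at P75 30.6 ± 1.20 CPM against 33.6 ± 3.60 CPM in wild types (SD, n = 4 each). In cerebellum the mutants averaged 51.1 ± 5.41 CPM and the wild types 50.3 ± 8.33 CPM. The ranges overlapped each time, so this transcript does not check the labels. Esr1, part of which is built into tamoxifen-inducible Cre, ranged from 39.8 to 64.5 CPM in mutant cerebrum at P42, against 1.60 to 9.97 CPM in wild types. In cerebellum it had 49.3 to 79.5 CPM in mutants and 1.62 to 2.12 CPM in wild types, and in cerebrum at P75 60.2 to 127.5 CPM in mutants and 4.99 to 6.77 CPM in wild types. Its groups did not overlap in any of the 3 comparisons. Summed forebrain markers reached 73.0 to 179 CPM in cerebellum and 246 to 834 CPM in cerebrum, and summed cerebellar markers 1708 to 5642 CPM in cerebellum and 202 to 409 CPM in cerebrum.

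Some libraries stood apart. In cerebrum at P42, 13 of 13 markers of deep regions (thalamus, hypothalamus and neighbouring structures) were higher in mutants, with 1 of them called, and sums of 641 to 1251 CPM in mutants against 151 to 390 CPM in wild types, and forebrain markers were lower for 8 of 8. Oligodendrocyte markers were higher in the same mutants for 6 of 6, with a median log2 difference of 0.61, and choroid plexus markers lower for 8 of 9, with a median of -1.24; 0 of either list were called. Mutant replicates 3 and 4 had the highest deep region levels. In cerebellum at P42, mutant replicate 1 held only 40.3 CPM of summed choroid plexus markers, where the other mutants held 743 to 1030 CPM and wild types 1344 to 2391 CPM. In cerebrum at P75, mutant replicates 1 and 2 had higher interferon-stimulated and general myeloid transcripts than replicates 3 and 4, and forebrain markers summed to 387 to 543 CPM in mutants and 596 to 645 CPM in wild types. Fits with the deep region or choroid plexus level as a covariate are given below. So is a fit of cerebrum at P42 without mutant replicates 3 and 4. The part of these differences in tissue makeup in the results that follow is not settled by those fits, and at P75 it was not tested.

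The group means of all 9 genes fell in a shared order. Both cerebellar groups were lowest for 9 of 9 genes, mutant cerebrum at P42 came next for 9 of 9, and mutant cerebrum at P75 was highest for 8 of 9, the exception being P2ry12, which was highest in wild type cerebrum at P42. Of the 45 neighbouring pairs of groups in these orders, 29 overlapped in their libraries' values. The P42 and P75 libraries stand in separate count tables, so age cannot be told apart from a difference between tables. The order of levels across ages is thus only a description, and only genotype effects were tested across ages.

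**Figure D1:**
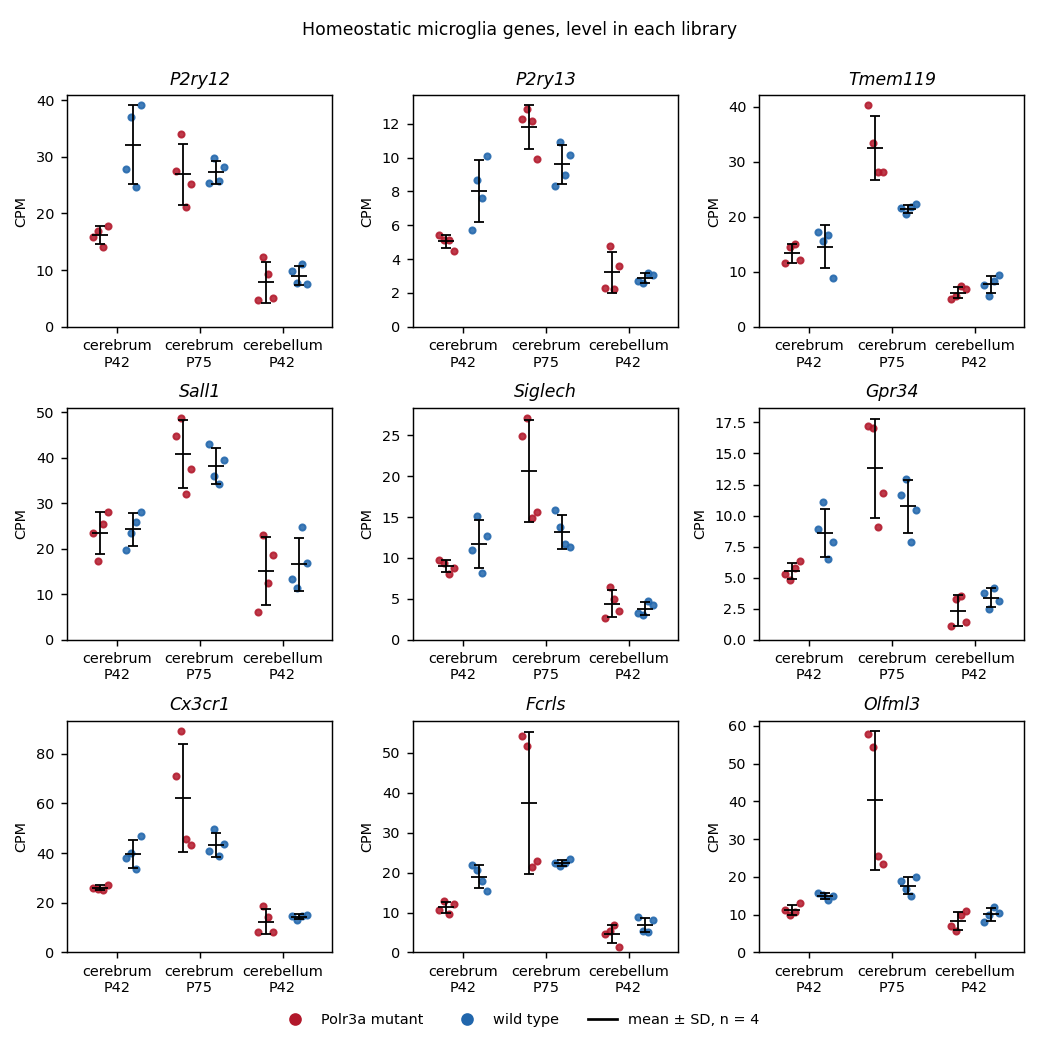
Level of each of the 9 genes in all 24 libraries, in CPM (vertical axis, from 0), with the mean and SD of the 4 libraries of a group; mutant libraries are red and stand left of the blue wild types. In cerebrum at P42 P2ry12 lies between 14.1 and 17.8 CPM in mutants, under all wild types, and at P75 the mutants of Cx3cr1, Fcrls and Olfml3 split into 2 high and 2 lower libraries.

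Levels per kilobase of deposited gene length are a rough way to set genes beside each other. On this scale wild type cerebrum at P42 held most of P2ry12, at 12.6 ± 2.74 CPM per kb. Cx3cr1 followed at 8.78 ± 1.24 and Fcrls at 8.10 ± 1.23 CPM per kb (SD, n = 4 each). Olfml3, at 2.42 ± 0.120 CPM per kb, and P2ry13, at 3.17 ± 0.730 CPM per kb, were lowest. Olfml3 also has the longest deposited length among these genes, 6161 bases, and whether that length matches the transcripts made was not tested. In wild type cerebrum at P75 the highest was again P2ry12, at 10.7 ± 0.819 CPM per kb, with Fcrls at 9.62 ± 0.306, Cx3cr1 at 9.61 ± 1.06 and Tmem119 at 9.28 ± 0.327 CPM per kb.

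In cerebrum at P42 the mutant libraries held less of most homeostatic transcripts. All 9 genes had fitted differences below 0, with a median log2 difference of -0.58 beside 0.01 over all genes tested, and for 6 of 9 every mutant lay below every wild type. P2ry12, the receptor by which microglial processes sense ADP, stood at 0.516 times its wild type level. None passed the edgeR quasi-likelihood test at a Benjamini-Hochberg adjusted p under 0.05. That threshold was passed by 0.0165% of the 18205 genes in either direction and 0% downward. By the same test 6 of 9 had an unadjusted p under 0.05, as did 2299 of all 18205 genes.

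P2ry12 had 15.8, 17.0, 14.1 and 17.8 CPM in mutants, against 27.9, 37.0, 24.6 and 39.1 CPM in wild types. The groups were well apart, and the wild types spread more widely than the mutants. Its log2 difference was -0.95 ± 0.13 (SE; 95% interval -1.24 to -0.67; edgeR adjusted p = 0.112), the 5th smallest p of 18205 genes. Its neighbour P2ry13, a second ADP receptor of microglia, had 5.43, 5.14, 5.11 and 4.49 CPM in mutants, against 5.71, 8.68, 7.59 and 10.1 CPM in wild types. The groups were apart by a small margin at wild type replicate 1, and the log2 difference was -0.63 ± 0.21 (edgeR adjusted p = 0.367). Med12l, which surrounds both genes, had -0.02 ± 0.15 in the same fit (edgeR adjusted p = 0.968).

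Cx3cr1, the receptor for the neuronal chemokine fractalkine, had 26.1, 25.6, 25.1 and 27.3 CPM in mutants, against 38.0, 39.9, 33.4 and 46.9 CPM in wild types. The mutants lay close together below all wild types, with a log2 difference of -0.58 ± 0.12 (edgeR adjusted p = 0.238). Gpr34, a receptor for lysophosphatidylserine, had 5.25, 4.81, 5.76 and 6.30 CPM in mutants, against 8.92, 11.1, 6.48 and 7.83 CPM in wild types. Its groups were narrowly apart, at -0.61 ± 0.21 (edgeR adjusted p = 0.369). The surrounding gene Cask had -0.28 ± 0.14 (edgeR adjusted p = 0.433).

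Among the surface and secreted proteins, Fcrls, an Fc receptor-like protein of microglia, had 10.6, 12.8, 9.68 and 12.2 CPM in mutants, against 21.9, 20.5, 17.8 and 15.4 CPM in wild types. All mutants lay below all wild types, at -0.73 ± 0.16 (edgeR adjusted p = 0.275). Olfml3, a secreted olfactomedin-like protein, had 11.2, 9.99, 10.8 and 13.2 CPM in mutants, against 15.7, 15.2, 14.0 and 14.9 CPM in wild types. It was apart too, but by less, at -0.39 ± 0.14 (edgeR adjusted p = 0.371). Siglech, a sialic acid-binding lectin, overlapped at 8.09 to 9.73 CPM in mutants and 8.14 to 15.1 CPM in wild types, with -0.34 ± 0.19 (edgeR adjusted p = 0.448).

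The remaining genes showed little difference. Tmem119, a transmembrane protein widely used to mark microglia, had 11.6, 14.6, 15.1 and 12.1 CPM in mutants, against 17.2, 15.6, 16.7 and 8.79 CPM in wild types, of which replicate 4 was the lowest of all 8 libraries. Its log2 difference was -0.09 ± 0.21, with a 95% interval of -0.56 to 0.38 (edgeR adjusted p = 0.868). Sall1, a zinc finger factor that maintains microglial identity and is also made by other brain cells, had 17.3 to 28.1 CPM in mutants and 19.6 to 28.1 CPM in wild types. Its log2 difference was -0.02 ± 0.18, with an interval of -0.43 to 0.39 (edgeR adjusted p = 0.962); it turned to 0.05 when libraries were scaled by size only.

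DESeq2, with a larger number of calls, called P2ry12 (adjusted p = 2.6e-07), Cx3cr1 (adjusted p = 0.00772) and Fcrls (adjusted p = 0.0148) lower, where it called 0.394% of 17499 genes lower. The authors' deposited table, with the columns of DESeq2, gives an adjusted p under 0.05 for the same 3 genes, with P2ry12 at -0.98 (adjusted p = 0.000368 in the authors' deposited table), and has 0.389% of its genes called lower. The groups of 6 genes did not overlap, with mutants lower, where 3.59% of all genes did so.

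Other markers give the setting of this difference. Of 19 further homeostatic genes tested, 15 were below 0 with a median of -0.21, and of 20 pan-myeloid genes 16 were below 0 with a median of -0.18, and 0 were called. Disease-associated microglia genes were above 0 for 12 of 16 (median 0.13). Interferon-stimulated genes were above 0 for 9 of 12 (median 0.31), and 0 of either list were called. The summed pan-myeloid level was 241 to 255 CPM in mutants and 227 to 322 CPM in wild types. Relative to the mean log2 level of the pan-myeloid genes in the same library, P2ry12, Cx3cr1 and Fcrls lay lower in every mutant than in every wild type; 0.428% of genes did so. P2ry12 was 1.13 ± 0.14 log2 units above the pan-myeloid mean in mutants and 1.88 ± 0.37 above it in wild types (SD, n = 4 each). Against the other homeostatic genes 4 of 9 were apart and lower (1.15% of genes).

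With the deep region level as a covariate, P2ry12 had -0.88 (edgeR adjusted p = 0.638). The median of the 9 genes was then -0.45, and Tmem119 and Siglech turned to 0.31 and 0.16. The deep region level, as mean log2 CPM, was 4.36 to 5.74 in mutants and 1.96 to 3.53 in wild types. Since it did not overlap between genotypes, this fit cannot tell it apart from genotype. Without mutant replicates 3 and 4, P2ry12 had -0.93, and 0 of 9 genes were called.

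**Figure D2:**
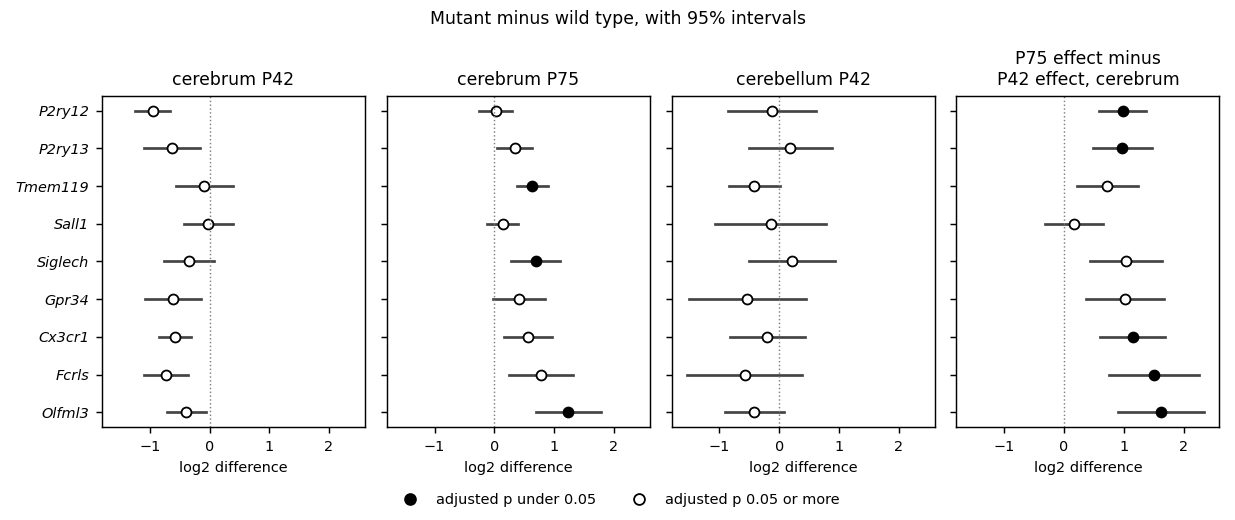
Log2 difference of mutant minus wild type with its 95% interval (horizontal axis) for the 9 genes in cerebrum at P42, cerebrum at P75 and cerebellum at P42, and the difference between the P75 and P42 effects in cerebrum; filled points had an adjusted p under 0.05. All 9 points lie below 0 at P42 and above 0 at P75 in cerebrum, with P2ry12 at -0.95 and 0.02.

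In cerebrum at P75 the direction was the opposite. All 9 genes had differences above 0, with a median of 0.57 beside 0.00 over all genes, and Olfml3, Tmem119 and Siglech rose. That is 3 of 9 genes called by edgeR, where 14.3% of 17523 genes were called in either direction and 7.66% upward. P2ry12 and Sall1 stayed near their wild type levels, and most of the others were high in mutant replicates 1 and 2 and near the wild types in replicates 3 and 4. With library size as the only scaling the median of all genes shifted by 0.11, to 0.11, and that of the 9 genes was 0.68.

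Olfml3 had 57.9, 54.4, 25.5 and 23.5 CPM in mutants, against 18.8, 16.7, 15.1 and 20.1 CPM in wild types. All mutants lay above all wild types, but replicates 1 and 2 held more than 2 times the level of replicates 3 and 4. The log2 difference was 1.23 ± 0.25 (edgeR adjusted p = 0.0053). Tmem119 had 40.3, 33.4, 28.1 and 28.1 CPM in mutants, against 21.5, 20.4, 21.7 and 22.2 CPM in wild types. Here too the groups were apart, and the wild types hardly varied; the difference was 0.64 ± 0.12 (edgeR adjusted p = 0.00284). These were the only 2 of the 9 genes whose groups did not overlap, where 8.37% of genes were apart and higher.

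Siglech had 24.9, 27.1, 14.9 and 15.6 CPM in mutants, against 15.9, 13.8, 11.7 and 11.3 CPM in wild types. It overlapped only at wild type replicate 1, and rose by 0.69 ± 0.19 (edgeR adjusted p = 0.0275). This call was lost without mutant replicate 1 (0.59, edgeR adjusted p = 0.0964) or 2 (0.53, edgeR adjusted p = 0.0803), and without wild type replicate 3 (0.64, edgeR adjusted p = 0.0744) or 4 (0.62, edgeR adjusted p = 0.0848). Olfml3 and Tmem119 kept theirs without any single library, at adjusted p up to 0.0202 and 0.0105 by edgeR.

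Fcrls had 54.1, 51.5, 21.3 and 22.9 CPM in mutants, against 22.4, 21.7, 22.3 and 23.4 CPM in wild types. Mutant replicates 1 and 2 lay far above the wild types, replicate 4 among them and replicate 3 below all 4. The difference, 0.78 ± 0.25, missed the threshold (edgeR adjusted p = 0.0538) and passed it without mutant replicate 3 (0.98, edgeR adjusted p = 0.00922) or 4 (0.96, edgeR adjusted p = 0.0104).

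Cx3cr1 followed the same split, with 71.0, 89.0, 45.7 and 43.5 CPM in mutants, against 40.9, 49.8, 38.8 and 43.6 CPM in wild types. Its difference was 0.57 ± 0.19 (edgeR adjusted p = 0.0565), or 0.70 and 0.71 without mutant replicate 3 or 4 (edgeR adjusted p = 0.021 and 0.00997). Of the genes inside its deposited span, Csrnp1, an immediate early gene, rose by 1.05 ± 0.14 (edgeR adjusted p = 0.000259). The share of reads that Cx3cr1 may take from it was not tested.

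The other 3 receptors were not called. Gpr34 had 17.2, 17.1, 9.09 and 11.9 CPM in mutants, against 11.7, 12.9, 7.88 and 10.5 CPM in wild types, with 0.41 ± 0.20 (edgeR adjusted p = 0.206). P2ry13 had 12.3, 12.9, 12.2 and 9.93 CPM in mutants, against 8.34, 10.9, 8.98 and 10.1 CPM in wild types; 3 of 4 mutants lay above all wild types, and the difference was 0.34 ± 0.14 (edgeR adjusted p = 0.11). P2ry12 had 27.4, 34.0, 21.1 and 25.1 CPM in mutants, against 25.3, 29.7, 25.7 and 28.3 CPM in wild types. Mutants lay on both sides of the wild types, with 0.02 ± 0.13 and an interval of -0.25 to 0.30 (edgeR adjusted p = 0.934). Sall1 was similar, at 32.1 to 48.8 CPM in mutants and 34.3 to 43.0 CPM in wild types, with 0.14 ± 0.12 and an interval of -0.13 to 0.40 (edgeR adjusted p = 0.509). The authors' deposited table calls Tmem119, Siglech and Olfml3, and 9.18% of its genes upward.

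The split of the mutants ran through other lists. The mean log2 level of the 9 genes was 5.08, 5.14, 4.39 and 4.45 in mutants 1 to 4, against 4.36, 4.39, 4.18 and 4.35 in wild types. For the pan-myeloid genes it was 5.04, 5.09, 4.27 and 4.0 in mutants, against 3.37, 3.19, 3.36 and 3.23 in wild types. Interferon-stimulated genes had 6.38, 6.15, 5.49 and 5.0 in mutants, against 2.29, 1.99, 2.24 and 2.07 in wild types. So all 4 mutants were above all wild types in these 3 lists, in the 9 genes by a hair for replicate 3 (both values round to 4.39), with replicates 1 and 2 ahead in each.

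**Figure D3:**
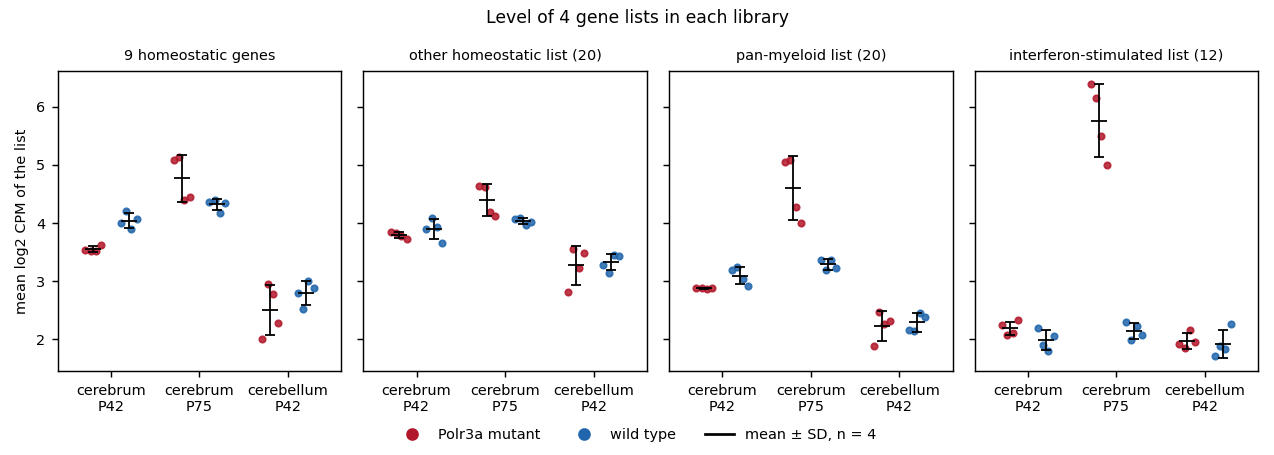
Mean log2 CPM (vertical axis) of the 9 homeostatic genes, 20 other homeostatic genes, 20 pan-myeloid genes and 12 interferon-stimulated genes in each library, with the mean and SD of 4 libraries; mutants are red and left of the blue wild types. In cerebrum at P75 the pan-myeloid level lies at 4.0 to 5.09 in mutants and 3.19 to 3.37 in wild types, a wider gap than for the 9 genes, at 4.39 to 5.14 and 4.18 to 4.39.

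Set beside general myeloid transcripts, the P75 differences of the 9 genes were small. Of 20 pan-myeloid genes 19 rose, with a median of 1.46. Cyba, a subunit of the phagocyte oxidase, rose by 1.94 ± 0.24 (edgeR adjusted p = 0.000106), and C1qa, a complement subunit, by 1.85 ± 0.25 (edgeR adjusted p = 0.000264). Relative to the pan-myeloid mean of the same library, 8 of 9 genes lay lower in all mutants than in all wild types, all but Olfml3, which overlapped. This count is near the background, since 81.2% of all genes did so once the rising myeloid level was subtracted, and the median of the 9, -0.84 on this relative scale, was above that of all genes, -1.35. P2ry12 lay -0.26 to 0.65 log2 units from the pan-myeloid mean in mutants and 1.29 to 1.70 above it in wild types. With the other homeostatic genes as the yardstick only P2ry12 was apart and lower (30.4% of genes) and only Olfml3 apart and higher (3.18%).

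Further homeostatic genes also rose in part, with 8 of 19 higher, 0 lower and a median of 0.40. Among them Csf1r, the receptor on which microglia depend for survival, rose by 0.72 ± 0.16 (edgeR adjusted p = 0.0093). The other 11 did not pass.

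Disease-associated microglia genes rose for 15 of 20, with a median of 0.91. The dendritic and microglial integrin Itgax rose by 5.55 ± 0.74 (edgeR adjusted p = 0.000234) and the cystatin gene Cst7 by 5.91 ± 0.80 (edgeR adjusted p = 0.000248). All 12 interferon-stimulated genes rose, with a median of 4.01. The smallest p among them were those of Oasl2 (4.93 ± 0.33, edgeR adjusted p = 1.1e-06) and Ifit3 (4.20 ± 0.29).

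Signals and factors that act on these genes moved in both directions. Cx3cl1, the fractalkine that binds Cx3cr1, fell to 459, 499, 547 and 644 CPM in mutants, against 728, 704, 735 and 781 CPM in wild types (-0.42 ± 0.09, edgeR adjusted p = 0.00732). Every mutant lay below every wild type. Mutants 1 and 2, with the most Cx3cr1, had the least Cx3cl1. Of 11 ligands, adaptors and partners, Nt5e, which makes adenosine from AMP, also fell (-0.50 ± 0.16, edgeR adjusted p = 0.0455), and Tyrobp, the signalling adaptor of Siglech, rose (1.34 ± 0.29, edgeR adjusted p = 0.00783).

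Both ligands of CSF1R changed, in opposite directions. Csf1 had 52.9, 50.6, 43.4 and 33.4 CPM in mutants, against 22.9, 20.2, 27.0 and 23.0 CPM in wild types, and rose by 0.99 ± 0.14 (edgeR adjusted p = 0.000296). Il34, the mainly neuronal ligand, had 30.9, 29.2, 33.6 and 39.3 CPM in mutants, against 46.4, 48.7, 43.9 and 47.0 CPM in wild types, and fell by 0.45 ± 0.09 on the log2 scale (edgeR adjusted p = 0.00587). Neither gene's groups overlapped. Neuron markers were also lower in these mutants for 6 of 6 genes (median -0.31, 3 called by edgeR). Forebrain markers were lower for 8 of 8 (median -0.37, 3 called by edgeR). The part of this general difference in the falls of Il34 and Cx3cl1 was not tested. Tgfb1 rose by 0.83 ± 0.22 (edgeR adjusted p = 0.0202) and its receptor gene Tgfbr2 by 0.76 ± 0.16 (edgeR adjusted p = 0.00754), so that with Csf1 and Csf1r 4 of the 14 genes of this list rose and Il34 fell. Of 8 microglial transcription factors 4 rose, among them Irf8 by 1.62 ± 0.24 (edgeR adjusted p = 0.000545) and Spi1, which encodes PU.1, by 1.45 ± 0.23 (edgeR adjusted p = 0.000825).

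Markers of other immune cells were also summed. The border macrophage sums and the monocyte and neutrophil sums were higher in every mutant than in every wild type. Of 9 border macrophage genes tested 1 rose, Siglec1, which is also an interferon-inducible gene, and the summed list was 49.3 to 61.4 CPM in mutants and 39.5 to 45.1 CPM in wild types. Monocyte and neutrophil markers summed to 5.98 to 10.1 CPM in mutants and 2.63 to 5.79 CPM in wild types, with 1 of 5 tested genes higher. Lymphocyte markers summed to 7.46 to 10.7 CPM in mutants and 5.90 to 8.08 CPM in wild types; of 2 tested, Cd79a rose and Cd4 fell. The T cell genes Cd3d, Cd3g and Cd8a had 0 counts in all 4 wild types and were not tested. Their levels in mutants are not reported here. The part of these cells in the rises was not tested.

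**Figure D4:**
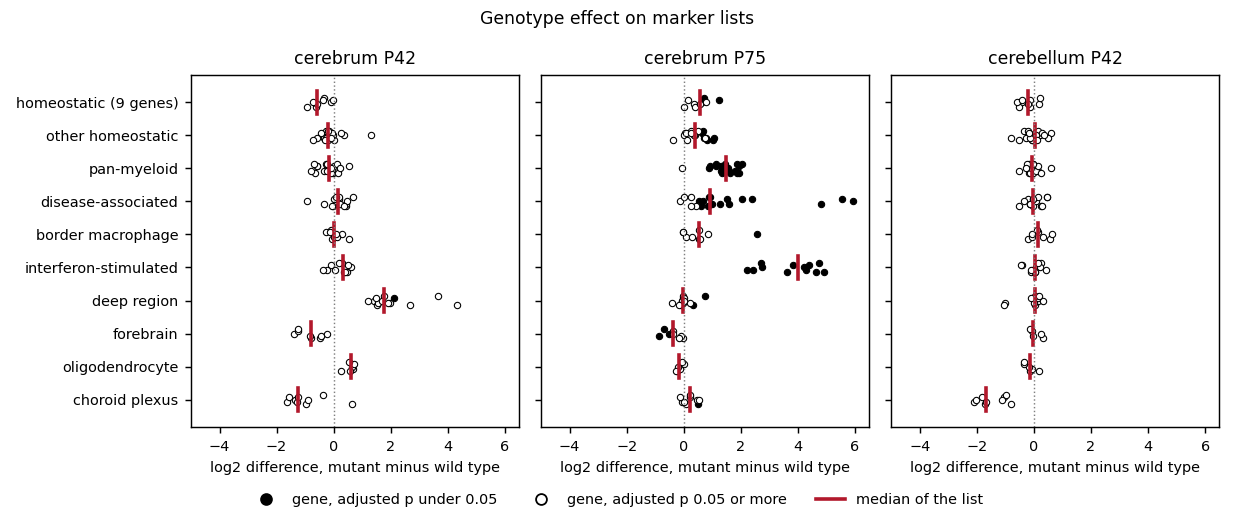
Log2 difference of mutant minus wild type (horizontal axis) for each tested gene of 10 lists in the 3 comparisons, filled where the adjusted p was under 0.05; red bars are list medians. The 9 homeostatic genes have medians of -0.58 in cerebrum at P42, 0.57 in cerebrum at P75 and -0.20 in cerebellum at P42, and the pan-myeloid genes -0.18, 1.46 and -0.06.

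The P75 and P42 effects in cerebrum, each against its own wild types, were compared by testing the difference between them. A call means that the effects differ, and not that the sign turned. At P42 edgeR had called 0 of the 9 genes, so by edgeR no gene was called in opposite directions at both ages. All 9 differences were above 0, with a median of 1.02 beside 0.01 over all genes, and 5 of 9 were called by edgeR, where 1.36% of 19273 genes were called in either direction and 1.04% upward. Olfml3 differed by 1.62 ± 0.34 (edgeR adjusted p = 0.0244), Fcrls by 1.51 ± 0.36 (edgeR adjusted p = 0.0453) and Cx3cr1 by 1.15 ± 0.26 (edgeR adjusted p = 0.0341). P2ry12 differed by 0.98 ± 0.19 (edgeR adjusted p = 0.0122) and P2ry13 by 0.98 ± 0.23 (edgeR adjusted p = 0.0489). In P2ry12 the P42 effect (-0.95) was far from 0 and the P75 effect (0.02) was not, whereas in Olfml3 the P75 effect (1.23) was the larger.

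Siglech (1.03 ± 0.29, edgeR adjusted p = 0.0922), Gpr34 (1.02 ± 0.31, edgeR adjusted p = 0.134) and Tmem119 (0.73 ± 0.24, edgeR adjusted p = 0.168) had differences of like size that did not pass. Sall1 had 0.16 ± 0.23 (edgeR adjusted p = 0.795). P2ry12 kept its call without each of the 16 libraries in turn, at adjusted p of 0.00484 to 0.0442 by edgeR. Olfml3 lost it in 7 of these 16 fits, Cx3cr1 in 11, Fcrls in 12 and P2ry13 in 13, and the number called ranged from 1 to 6. P2ry12 alone was called without mutant replicate 1 or 2 or wild type replicate 1 or 3 at P75, and without mutant replicate 2 or wild type replicate 2 at P42, although all 5 differences were 0.82 or more in every one of these fits. In males alone, with 2 per group at P42, 0 of 9 were called, and P2ry12 had 0.82 (edgeR adjusted p = 0.153). In the fit of all 16 libraries 12 of 20 pan-myeloid genes (median 1.66) and 12 of 12 interferon-stimulated genes (median 3.58) were called. Of the other homeostatic genes 3 of 19 were called, with a median of 0.63. Deep region markers had a median of -1.78 in the same test, with 5 of 13 called lower. Their part in the difference was not tested.

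In cerebellum at P42 no difference was detected. Fitted differences were below 0 for 7 genes and above 0 for P2ry13 and Siglech, with a median of -0.20 beside 0.01 over all genes, and 0 of 9 were called by edgeR (0.0114% of 17616 genes in either direction). Of the 9 genes 0 had an unadjusted p under 0.05 by edgeR, where 819 of the 17616 genes did. DESeq2 called 0 of them (0.233% of genes), as did the authors' deposited table (0.1%). Mutants and wild types overlapped for all 9 genes, where 1.57% of genes were apart and lower and 1.78% apart and higher. P2ry12 had 4.75, 12.3, 9.29 and 5.08 CPM in mutants, against 9.81, 7.76, 11.03 and 7.55 CPM in wild types, with -0.12 ± 0.32 and an interval of -0.85 to 0.61 (edgeR adjusted p = 0.999). Cx3cr1 had 8.20, 18.6, 14.4 and 8.20 CPM in mutants, against 14.9, 12.96, 14.6 and 15.2 CPM in wild types, with -0.20 ± 0.28 (edgeR adjusted p = 0.984). In both genes mutant replicates 2 and 3 were high and 1 and 4 low, and the mutants spread more than the wild types.

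Among the others, Fcrls had 1.47 to 6.78 CPM in mutants and 5.23 to 8.76 CPM in wild types (-0.58 ± 0.43), and Gpr34 1.10 to 3.55 CPM in mutants and 2.43 to 4.17 CPM in wild types (-0.53 ± 0.43). Tmem119 and Olfml3 both had -0.41, with standard errors of 0.19 and 0.22. These intervals are wide: that of Fcrls, -1.55 to 0.39, includes the -0.73 found in cerebrum. The effect in cerebellum minus that in cerebrum was 0.76 ± 0.38 for P2ry12 and 0.80 ± 0.36 for P2ry13 (edgeR adjusted p = 0.732 for both), and no gene of 19614 was called (0% by edgeR, with 1213 genes and 1 of the 9 at an unadjusted p under 0.05, and 8 genes, 0.0452%, and 0 of the 9 by DESeq2). A difference between the tissues is thus not shown. Choroid plexus markers were lower in mutants for 9 of 9, with a median of -1.68, and with their level as a covariate the median of the 9 genes was 0.29. The summed choroid plexus level did not overlap between genotypes, so this fit cannot tell that level apart from genotype.

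Without the mutation the 9 genes were lower in cerebellum than in cerebrum, as were most other homeostatic and pan-myeloid genes. In wild types at P42, 8 of 9 were called lower in cerebellum, where edgeR called 30.5% of 17964 genes in either direction and 16.4% lower, and the median was -1.36 beside 0.03 over all genes. P2ry12 averaged 9.04 ± 1.67 CPM in cerebellar libraries and 32.1 ± 6.98 CPM in cerebral ones (SD, n = 4 each; log2 difference -1.75 ± 0.21, edgeR adjusted p = 0.000122), and Cx3cr1 14.4 ± 1.0 CPM in cerebellum and 39.6 ± 5.58 CPM in cerebrum (-1.40 ± 0.13, edgeR adjusted p = 3.4e-05). Olfml3 differed least among those called, at -0.54 ± 0.17 (edgeR adjusted p = 0.0339), and Sall1 was not called, at -0.52 ± 0.24 (edgeR adjusted p = 0.137). Groups did not overlap for 7 of 9, all but Tmem119 and Sall1, where 19% of genes were apart and lower. Of 19 other homeostatic genes 12 were called lower and 1 higher, with a median of -0.84. Of 20 pan-myeloid genes 11 were called lower and 1 higher, with a median of -0.79. The call of Tmem119 was lost without wild type cerebrum replicate 3 (-0.85, edgeR adjusted p = 0.0535), and that of Olfml3 in 6 of 8 fits that left out 1 library (edgeR adjusted p up to 0.101 without cerebrum replicate 1). Sall1 was called without cerebellum replicate 3 (-0.77, edgeR adjusted p = 0.0121).

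Within groups the 9 genes did not all vary together. The mean of each of the 6 groups was first removed from the log2 CPM. The 36 pairs of genes then had a median Pearson correlation of 0.43 over 24 libraries. Single pairs ranged from -0.18 (P2ry13 with Fcrls) to 0.86 (P2ry12 with Cx3cr1). Both genes of a pair share the tissue makeup and depth of each library, so the correlations are only a description. The mean deviation of the 9 genes spread most in mutant cerebellum at P42 (SD 0.43) and mutant cerebrum at P75 (SD 0.40). In the other groups its SD was 0.05 to 0.21, so those mutant libraries weigh most in correlations with that mean. P2ry12, Siglech, Gpr34 and Cx3cr1 had correlations of 0.80 to 0.86 with each other. The median correlation of a gene with the other 8 was lowest for Tmem119 (0.21), Olfml3 (0.31), P2ry13 (0.34) and Fcrls (0.38), and 0.51 to 0.58 for the remaining 5. The genes most like the mean of the 9, of 16254 with at least 1 CPM, were Csf1r (0.88), Mpeg1, which encodes the macrophage pore protein perforin-2 (0.85), Cfap57 (0.83), Pld4 (0.83) and Gm13293 (0.83), then Zmpste24, Pik3ap1, Il33, Selplg and Itgam (0.79 to 0.81). Of these 10 genes Mpeg1, Pld4, Pik3ap1, Itgam and Csf1r rose in mutant cerebrum at P75, Mpeg1 by 1.94 ± 0.31 (edgeR adjusted p = 0.000951), while Cfap57, Gm13293, Zmpste24, Il33 and Selplg did not pass.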

How the data were processed

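Gene counts of 24 libraries were deposited by the authors in 2 tables, one of cerebrum and cerebellum at P42 and one of cerebrum at P75, as unnormalised whole counts per gene with gene lengths, per the file headers. HISAT2, DESeq2 and the mm10 build are named in the submitters' processing notes. For the counting tool, its use of strand and its annotation, details were not given in the sources used here. The authors' deposited tables of comparisons hold log2 fold changes and adjusted p-values of mutant over wild type, by a design not given in the sources used here. Libraries were polyA-enriched, per the labels' protocols. Each held 13832721 to 23175864 counts, and no pair of libraries held identical values.

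Counts were fitted with edgeR 4.0.16 (limma 3.58.1, R 4.3.3), using TMM scaling, filterByExpr and the two-sided quasi-likelihood F test, with sex as a covariate at P42, and p-values were Benjamini-Hochberg adjusted over all genes tested, with a threshold of 0.05. Effects of age and tissue were tested as interactions of genotype. DESeq2 1.42.0 was an alternative. Standard errors were taken from the fold change and its F value. CPM used a TMM-scaled total over all 24 libraries, and log2 CPM a prior count of 0.5. Genotype fits of cerebrum at P42 and P75 and that of the age difference were run on simulated counts, with changes only in genes of higher counts. The outcome is not reported here, and the cerebellum and tissue fits were not simulated. No libraries were dropped or imputed in the main comparisons. All 9 genes passed the filter in each comparison.

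The 9 genes and the lists (other homeostatic, pan-myeloid, disease-associated, interferon-stimulated, border macrophage, monocyte and neutrophil, lymphocyte, ligands and partners, CSF1 and TGF-beta axis, transcription factors, astrocyte, oligodendrocyte, neuron, endothelial, deep region, forebrain, choroid plexus and cerebellum) were chosen with earlier results of these data known. Named from each list are up to 3 genes of smallest p, and ligands of the 9 genes always; some results are not reported here. Genes whose span overlaps a gene of the 9, and the single genes named among the immune markers, were picked after their values were seen. Spi1, Irf8 and Tyrobp are in the pan-myeloid list and a second one, and Entpd1, Csf1 and Csf1r are also each in 2 lists. Astrocyte, neuron and endothelial lists had medians of -0.13, -0.24 and 0.19 in cerebrum at P42 and of 0.10, -0.31 and 0.39 at P75.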

Additional observations from a re-analysis of the deposited data

Results flagged for a closer look

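The genotype effect in cerebrum differed between P75 and P42 for 5 of the 9 genes by a test of the difference itself (edgeR interaction of genotype and age, adjusted over all genes). The P75 minus P42 difference was 0.98 for P2ry12, 0.98 for P2ry13, 1.15 for Cx3cr1, 1.51 for Fcrls and 1.62 for Olfml3 on the log2 scale. The 2 ages also differ in count table and in sex makeup, which cannot be told apart from age. No library of any of the 54 combinations of gene and group lay far from the other 3 by Dixon's test, where chance gives 2.7.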

How the results depend on the processing

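The 9 genes kept their direction in most alternatives, and the number called did not. The cause of the changes was not tested. Cerebrum at P42: 3 of the 9 were called lower by DESeq2 and 3 without a filter on low counts, among 233 and 1312 genes. With 1 CPM in 4 libraries, library size only, no sex term, the deep region covariate, males only, or without mutant replicates 3 and 4, 0 genes were called, against 3. The median of the 9 was -0.45 with the deep region covariate and -0.41 in males. Signs turned for Tmem119 (0.31) and Siglech (0.16) with the covariate, and for Sall1 by library size (0.052) and in males (0.12). Cerebellum: 41 genes were called by DESeq2, 153 with no filter, and 1 with no sex term or the choroid plexus covariate. With that covariate P2ry12 had 0.50, Sall1 0.78, Gpr34 0.15 and Cx3cr1 0.29, which was the median. Deep region and choroid plexus levels did not overlap between genotypes, so the fits with these covariates cannot tell them apart from genotype. Cerebrum at P75: 6 of the 9 were called by library size and 5 with no filter, among 2860 and 3241 genes, against 3 among 2502. Age difference: 8 were called with no filter and 0 in males, and genes called numbered 670 by DESeq2, 1176 with no filter and 135 in males. Tissue difference: 8 genes were called by DESeq2 and 279 with no filter, and by library size Gpr34 had -0.029 and Olfml3 -0.037. Relative to other homeostatic genes 1 gene lay lower in all P75 mutants.

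Whether replicate numbers pair the libraries cannot be settled from correlations of 4 libraries per group. Mutant cerebrum was not compared with mutant cerebellum. Same-numbered correlations were 0.04 to 0.31 in cerebrum at P42 and -0.39 to 0.12 in cerebellum. They were 0.03 to 0.17 in cerebrum at P75 and -0.20 to 0.18 between wild type cerebellum and cerebrum. The number of the 4 libraries that matched their own number best was 1, 0, 3 and 2 in these pairs. With the number as a replicate block, 8 genes were called in cerebrum at P42, 1 in cerebellum, 3537 in cerebrum at P75, 6 of the 9 among them, and 2658 between wild type tissues. Under the block Sall1 had 0.037 in cerebellum, and tissue differences were 0.083 for Sall1, -0.20 for Gpr34 and -0.35 for Fcrls.

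Without 1 library at a time, cerebrum at P42 gave 0 to 11 genes, a median of -0.62 to -0.47, Tmem119 at -0.27 to 0.032 and Sall1 at -0.15 to 0.13. Cerebellum gave 1 to 2 genes, a median of -0.54 to 0.011, P2ry12 at -0.54 to 0.16, P2ry13 at -0.19 to 0.38, Sall1 at -0.78 to 0.21, Siglech at -0.22 to 0.44 and Cx3cr1 at -0.60 to 0.011. Cerebrum at P75 gave 1356 to 2783 genes, 2 to 5 of the 9, and P2ry12 at -0.11 to 0.13. The age difference gave 124 to 1169 genes, 1 to 6 of the 9, and Sall1 at -0.019 to 0.26. The tissue difference gave 0 to 2 genes, a median of -0.0036 to 0.44, Sall1 at -0.54 to 0.19, Gpr34 at -0.27 to 0.31, Cx3cr1 at -0.0076 to 0.52, Fcrls at -0.16 to 0.44 and Olfml3 at -0.056 to 0.20. In cerebellum the 95% intervals of 7 of the 9 genes span more than a log2 unit.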
